A study of Mus musculus with 12 samples.

Results

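The genes of the Lif and Jak-Stat3 pathway followed here are the 10 genes *Lif*, *Lifr*, *Il6st*, *Osmr*, *Jak1*, *Jak2*, *Stat3*, *Socs2*, *Socs3* and *Pim1*. They were chosen by gene name among the 34836 names on the array and were read by 16 of its 55681 probes. All 16 were among the 25940 probes tested, those for which some group had all 3 of its arrays well above background. RNA came from 4 groups of mouse ES cells, each measured on 3 of 12 one-colour Agilent arrays: ES cells and XEN-like cells that were *Sox7* (+/-), and ES cells and XEN-like cells that were *Sox7* (-/-). Cells of all groups carry Gata6GR, a fusion of Gata6 to the ligand-binding domain of the glucocorticoid receptor that a CAG promoter drives from a piggyBac vector. XEN-like cells, which resemble extraembryonic endoderm stem cells, are the same cells after 4 days with dexamethasone (Dex), which lets the fusion protein enter the nucleus, and the ES cells of both genotypes received no Dex. The effects of Dex itself and of Gata6GR cannot be told apart, since every XEN-like culture had both. The *Sox7* (+/-) cells are 1 targeted clone of the EB3 line in which a selection cassette replaced the *Sox7* coding region, and the *Sox7* (-/-) cells were derived from it by high-dose puromycin, so genotype and clone cannot be told apart. By the methods of the study the medium contained LIF in all groups, so every cell was exposed to added ligand whatever its own *Lif* level. In bulk RNA, fewer cells with a transcript and less of the transcript per cell cannot be told apart.

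LIF is a secreted cytokine that joins its receptor, Lifr, with the shared subunit gp130, the product of *Il6st*. The kinases Jak1 and Jak2 bound to these chains then phosphorylate Stat3, which enters the nucleus and activates its targets. Among these targets are inhibitors of the Socs family, which damp the signal, and the kinase Pim1. In mouse ES cells this signal sustains self-renewal, and in the embryo it also supports primitive endoderm, the tissue that XEN-like cells resemble.

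RefSeq promoter windows of GRCm38.p6, from 250 bases before to 50 bases after a transcript start, were found for 9 of the 10 genes, all but *Socs2*, in 11 windows. They were searched on both strands for TTCNNNGAA, the core letters to which Stat proteins bind, for GATAA, the core letters of a Gata site, and for ACANNNTGT, the core letters of a glucocorticoid receptor site. The Stat letters were found in the window of *Socs3*, the textbook feedback inhibitor of this pathway, at bases -154 to -146 from the start, and in no other window of the 10 genes. Of all 32851 windows, 8.30% held them. *Socs3* and *Pim1* are shown because they were the 2 of the 10 genes called lower in *Sox7* (-/-) XEN-like cells, the first of the 2 *Pim1* windows standing for that gene, with the Stat letters in capitals.
Socs3, chr11:117969317-117969616, minus strand: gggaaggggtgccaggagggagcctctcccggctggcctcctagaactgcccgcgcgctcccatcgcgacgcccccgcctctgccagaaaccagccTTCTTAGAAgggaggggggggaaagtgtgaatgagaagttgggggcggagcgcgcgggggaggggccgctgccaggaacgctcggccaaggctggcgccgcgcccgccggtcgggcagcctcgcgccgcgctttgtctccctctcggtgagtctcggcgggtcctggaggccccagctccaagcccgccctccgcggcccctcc
Pim1, chr17:29490535-29490834, plus strand: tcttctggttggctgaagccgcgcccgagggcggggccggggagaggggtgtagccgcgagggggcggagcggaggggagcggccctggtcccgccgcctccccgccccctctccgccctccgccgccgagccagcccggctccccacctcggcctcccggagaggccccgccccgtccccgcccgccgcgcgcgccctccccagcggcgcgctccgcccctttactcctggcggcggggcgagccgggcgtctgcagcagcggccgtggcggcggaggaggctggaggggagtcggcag

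The Gata letters were found in both windows of *Lifr*, whose 3 probes were all higher in XEN-like cells of both genotypes, and in no other window of the 10 genes. Of all windows, 25.4% held them. They lay at bases 33 to 37 of the first window and -172 to -168 of the second, on the strand opposite to the gene, and are in capitals below.
Lifr, first window, chr15:7129322-7129621, plus strand: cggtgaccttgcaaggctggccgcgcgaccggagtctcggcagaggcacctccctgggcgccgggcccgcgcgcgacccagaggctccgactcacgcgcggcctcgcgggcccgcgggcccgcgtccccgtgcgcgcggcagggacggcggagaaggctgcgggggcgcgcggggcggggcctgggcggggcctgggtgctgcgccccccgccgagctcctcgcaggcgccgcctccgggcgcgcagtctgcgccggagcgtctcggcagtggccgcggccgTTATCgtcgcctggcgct
Lifr, second window, chr15:7140292-7140591, plus strand: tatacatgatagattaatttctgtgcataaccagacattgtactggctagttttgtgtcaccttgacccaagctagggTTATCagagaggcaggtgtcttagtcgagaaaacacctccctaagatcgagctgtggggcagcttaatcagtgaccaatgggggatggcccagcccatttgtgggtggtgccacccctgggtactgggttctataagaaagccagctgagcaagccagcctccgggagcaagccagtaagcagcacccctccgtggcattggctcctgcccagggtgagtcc
The glucocorticoid receptor letters, present in 6.85% of all windows, were in none of the 11. Such matches describe these windows and show no binding.

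Levels are given as the background-subtracted signal in percent of the 75th percentile of the same array, and differences as log2 differences of that value. They are set between groups for 1 probe at a time, because the signals of different probes cannot be compared. A probe was called where its Benjamini-Hochberg adjusted p from limma, over all 25940 probes, was under 0.05 and its difference was over 2-fold. The brightest probe stood for its gene unless another is named. The labels do not say whether replicates came from separate cultures, and one source label, with 1 replicate number, is shared by the 3 arrays of *Sox7* (+/-) ES cells, so the p-values measure only the spread between these samples. The number of arrays limits the precision.

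Marker genes were read as a check of the labels. *Sox7*, the targeted gene, averaged 224% ± 5.42 (SD, n = 3) before Dex and 558% ± 113 (SD, n = 3) after it in *Sox7* (+/-) cells, and was not well above background on any of the 6 *Sox7* (-/-) arrays. Whether its probe lies in the deleted stretch was not established. Of 6 ES cell markers 5 fell with Dex in *Sox7* (+/-) and 6 in *Sox7* (-/-) cells, and of 8 extraembryonic endoderm markers 6 and 7 rose. The summed signal of the 6 ES cell markers was 514 to 812% in *Sox7* (+/-) XEN-like and 1236 to 1549% in *Sox7* (-/-) XEN-like cells. In ES cells it also differed between the genotypes, at 19866 to 20982% in *Sox7* (+/-) and 41178 to 44353% in *Sox7* (-/-) cells. A sum weighs the brightest probes most. Between XEN-like cells 2 of the 6 ES cell markers were called higher in *Sox7* (-/-) cells. There 3 of the 6 were lower, 2 of them with an adjusted p under 0.05 from limma. Between ES cells 2 were called higher, and all 6 differences were positive. The 5 trophectoderm markers tested had sums of 92.7 to 108% in *Sox7* (+/-) and 249 to 266% in *Sox7* (-/-) XEN-like cells, and 3 of them were called higher in the latter. In ES cells their sums ran the other way, 819 to 837% against 422 to 448%, and 3 were called lower in *Sox7* (-/-) cells. Of all probes 3.86% were called higher in *Sox7* (-/-) XEN-like cells, and 1.95% higher and 6.67% lower in *Sox7* (-/-) ES cells. Of 7 glucocorticoid response genes, *Zbtb16* rose with Dex in both genotypes while *Fkbp5* and *Dusp1* fell. The part of the ES cell and trophectoderm marker differences in the results below, between ES cells as between XEN-like cells, was not tested.

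Arrays lay on 2 slides. The *Sox7* (+/-) arrays and 2 of the *Sox7* (-/-) XEN-like arrays were on 1 slide, and the other held replicate 1 of the *Sox7* (-/-) XEN-like cells with the 3 ES arrays of that genotype. The Dex response of *Sox7* (+/-) cells therefore lies within 1 slide, while the comparison of ES cells between genotypes can be separated from the slide only through the *Sox7* (-/-) XEN-like cells. Within 1 slide, the Dex response of *Sox7* (-/-) cells rests on 1 XEN-like array against 3 ES arrays. A block for the slide rests on the same 1 XEN-like array against the other 2. The 5 comparisons below share groups: each Dex response shares an ES group and a XEN-like group with the genotype comparisons, and the difference between the Dex responses uses all 12 arrays.

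**Figure D1:**
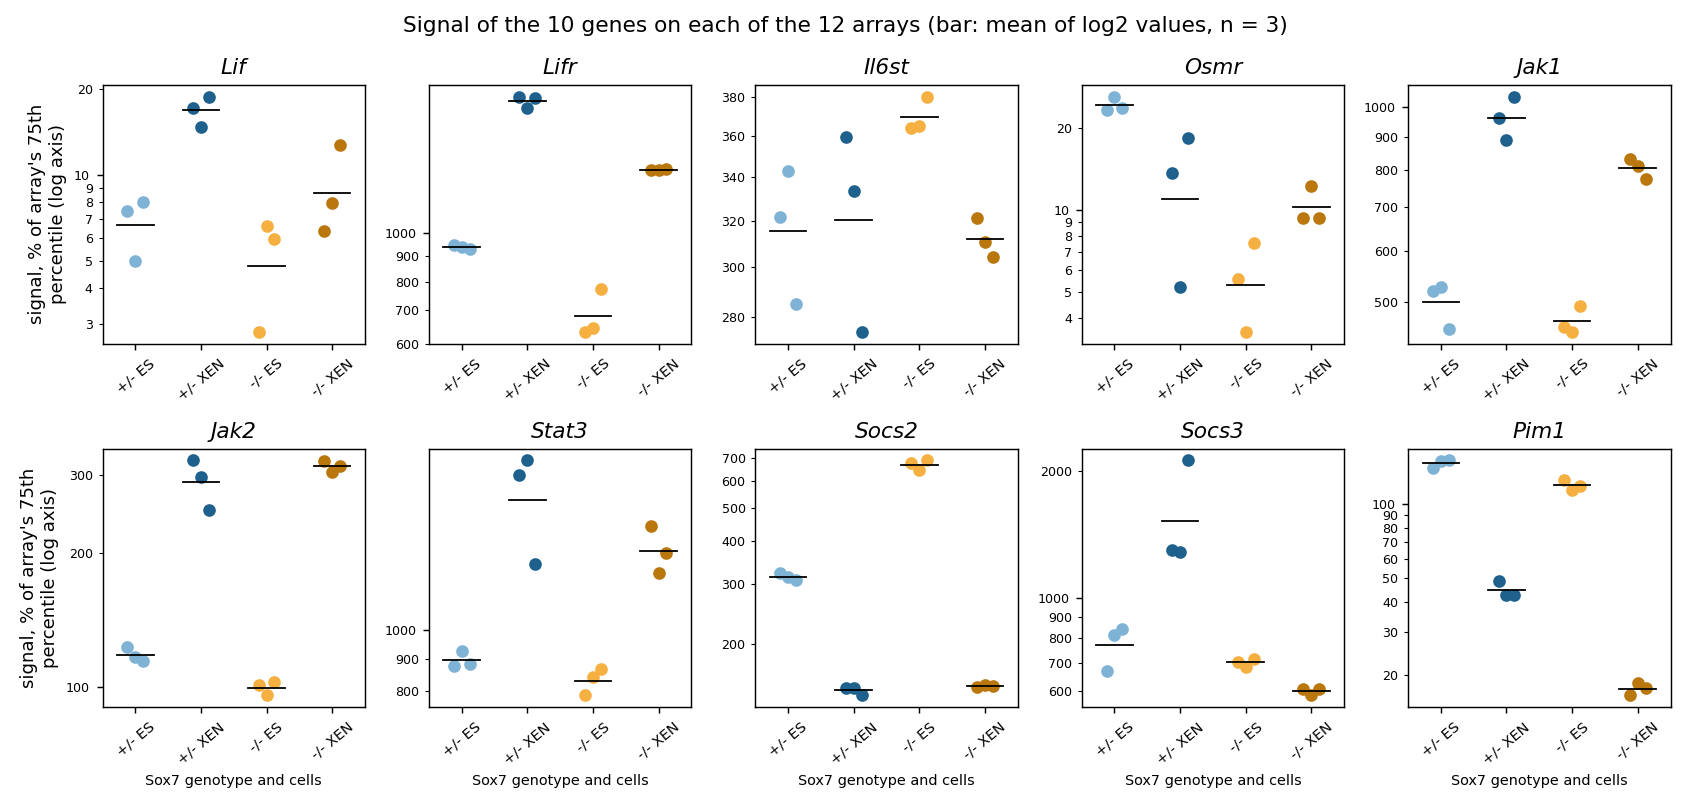
Signal of the 10 genes on each of the 12 arrays, in percent of the array's 75th percentile on log axes that differ between genes; points are arrays in the order of their replicate numbers, and bars are means of the log2 values (n = 3). *Pim1* was at 42.4 to 48.7% in *Sox7* (+/-) and at 16.6 to 18.7% in *Sox7* (-/-) XEN-like cells, while *Socs2* was at 141 to 151% in both.

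With Dex in *Sox7* (+/-) cells, the genes for the ligand, its receptor, both kinases, Stat3 and Socs3 were higher in XEN-like than in ES cells, and those for the receptor Osmr, the inhibitor Socs2 and the kinase Pim1 were lower. *Lif* and *Jak2* rose and *Osmr*, *Socs2* and *Pim1* fell by more than 2-fold, so 2 of 10 genes were called higher and 3 lower, where 11.0% of all probes were called higher and 14.0% lower. The call of *Lif* comes from a dim probe that was tested only through the group in which it was high. That of *Osmr* rests on a probe dim in every group but *Sox7* (+/-) ES cells, which also favours its call. At an adjusted p under 0.05 with any fold, 6 were higher and 3 lower, against 37.5% and 25.3% of all probes. In *Sox7* (-/-) cells *Jak2* rose and *Socs2* and *Pim1* fell, or 1 gene higher and 2 lower, where 14.6% and 14.2% of all probes were called. At any fold 4 genes were higher there (*Lifr*, *Jak1*, *Jak2* and *Stat3*) and 2 lower, against 34.0% and 31.3% of all probes. Over the 10 genes the median log2 differences were 0.90 and 0.74, *Sox7* (+/-) first, and over all probes 0.16 and 0.07. Scaling by the spike-in controls in place of the 75th percentile moved the median of all probes to -0.33 and -0.01, so changes in *Sox7* (+/-) cells are read against a zero that depends on the scaling.

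**Figure D2:**
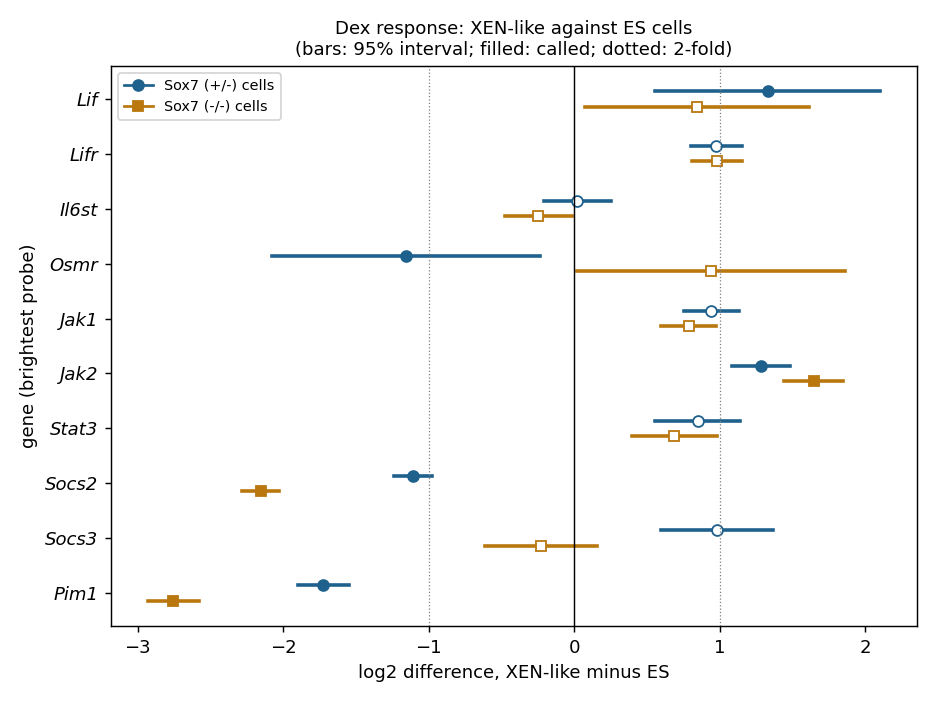
Log2 difference of XEN-like minus ES cells for the brightest probe of each gene, in *Sox7* (+/-) cells (circles) and *Sox7* (-/-) cells (squares); lines are 95% intervals from limma, filled symbols are called, dotted lines mark 2-fold. *Lifr*, *Jak1*, *Jak2* and *Stat3* lay to the right of zero in both genotypes, and *Socs3* was at 0.98 in *Sox7* (+/-) and -0.23 in *Sox7* (-/-) cells. The *Sox7* (-/-) points of *Lif* and *Osmr* rest on ES arrays not well above background and are not measured sizes.

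*Lif*, the ligand, had a dim probe (mm9 chr11:4172032-4172091) on which only the *Sox7* (+/-) XEN-like arrays were all well above background. Its signal was 7.46, 4.97 and 8.03% in *Sox7* (+/-) ES cells, 17.1, 14.7 and 18.8% in *Sox7* (+/-) XEN-like cells, 2.82, 6.61 and 5.95% in *Sox7* (-/-) ES cells and 6.38, 7.94 and 12.7% in *Sox7* (-/-) XEN-like cells. Every *Sox7* (+/-) XEN-like array lay above every array of the other 3 groups, whose ranges overlapped with each other. *Lif* rose 2.51-fold with Dex in *Sox7* (+/-) cells (log2 difference 1.33, SE 0.35, adjusted p = 0.0070 from limma). Of the *Sox7* (+/-) ES arrays only 1 was well above background. The probe was thus tested only through the group in which it was high, which favours such a call. Without the filter on dim probes the adjusted p from limma was 0.011. In *Sox7* (-/-) cells no ES array and 1 XEN-like array was well above background, and no size is given for the Dex difference there (adjusted p = 0.053), which was called in 2 of the 6 fits that left out 1 array, those without ES replicate 2 or XEN-like replicate 1. The XEN-like groups differed in *Lif* by -0.96, *Sox7* (-/-) minus *Sox7* (+/-) (SE 0.35, adjusted p = 0.055), -0.74 within 1 slide and -1.24 without *Sox7* (-/-) XEN-like replicate 3, where it was called. The rise in *Sox7* (+/-) cells was not called, at 0.84 when scaled by the spike-in controls, 0.62 with normexp background correction and 0.30 in the deposited table.

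*Lifr*, the receptor chain particular to LIF and its near relatives, was higher in XEN-like cells of both genotypes. It was lower without *Sox7* at both stages relative to the 75th percentile, but between XEN-like cells this depended on the scaling. The brightest probe (mm9 chr15:7147319-7147378) read 949, 939 and 932% in *Sox7* (+/-) ES cells, 1887, 1791 and 1879% in *Sox7* (+/-) XEN-like cells, 634, 645 and 773% in *Sox7* (-/-) ES cells and 1340.4, 1343 and 1351% in *Sox7* (-/-) XEN-like cells. No 2 groups overlapped, and the order was *Sox7* (-/-) ES, *Sox7* (+/-) ES, *Sox7* (-/-) XEN-like and *Sox7* (+/-) XEN-like cells. The Dex difference was 0.98 in both genotypes (SE 0.08, adjusted p = 2.0e-06 and 1.5e-06 from limma), 1.97-fold in each and so just under the call. It barely passed 2-fold without replicate 2 of the *Sox7* (+/-) XEN-like cells, and was at 1.07 without replicate 3 of the *Sox7* (-/-) ES cells. The difference between the 2 responses was 0.00 (SE 0.11, 95% interval -0.24 to 0.25). *Sox7* (-/-) cells were lower by a log2 difference of -0.46 both in ES cells (adjusted p = 0.0011) and in XEN-like cells (adjusted p = 0.0017), the former with an adjusted p of 0.079 and the latter of 0.0073 when the slide was a block. The XEN-like difference was -0.21 (adjusted p = 0.27) scaled by the spike-in controls and -0.06 (adjusted p = 0.81) in the deposited table. The equal Dex differences also rested on the scaling, being 0.49 and 0.89 with the spike-in controls and 0.56 and 0.92 in the deposited table, *Sox7* (+/-) first.

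The other 2 *Lifr* probes moved the same way but by other amounts. A probe that the array's annotation assigns to a different transcript, NM_001113386 (mm9 chr15:7135072-7135131), read 133, 121 and 126% in *Sox7* (+/-) ES, 421, 413 and 474% in *Sox7* (+/-) XEN-like, 71.7, 69.6 and 71.7% in *Sox7* (-/-) ES and 302, 316 and 316% in *Sox7* (-/-) XEN-like cells. It rose 3.44-fold in *Sox7* (+/-) and 4.39-fold in *Sox7* (-/-) cells (log2 differences 1.78 and 2.13, SE 0.07 for both), which is beyond the interval of the brightest probe in both genotypes. The third probe (mm9 chr15:7141150-7141209) differed by 0.84 in *Sox7* (+/-) and rose by 1.39 in *Sox7* (-/-) cells. On these 2 probes the response was larger in *Sox7* (-/-) cells by 0.35 (adjusted p = 0.025) and 0.55 (adjusted p = 0.018), both under 2-fold. Mouse *Lifr* is known to be spliced into a membrane receptor and a secreted form, and which form each probe reads was not looked up here. The mean of the 3 probes had Dex differences of 1.20 and 1.50 and was called in both genotypes. Between ES cells that mean was lower in *Sox7* (-/-) cells by -0.79 (adjusted p = 2.6e-05 from limma), further than the brightest probe. Between XEN-like cells it was lower by -0.48 (adjusted p = 8.5e-04).

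**Figure D3:**
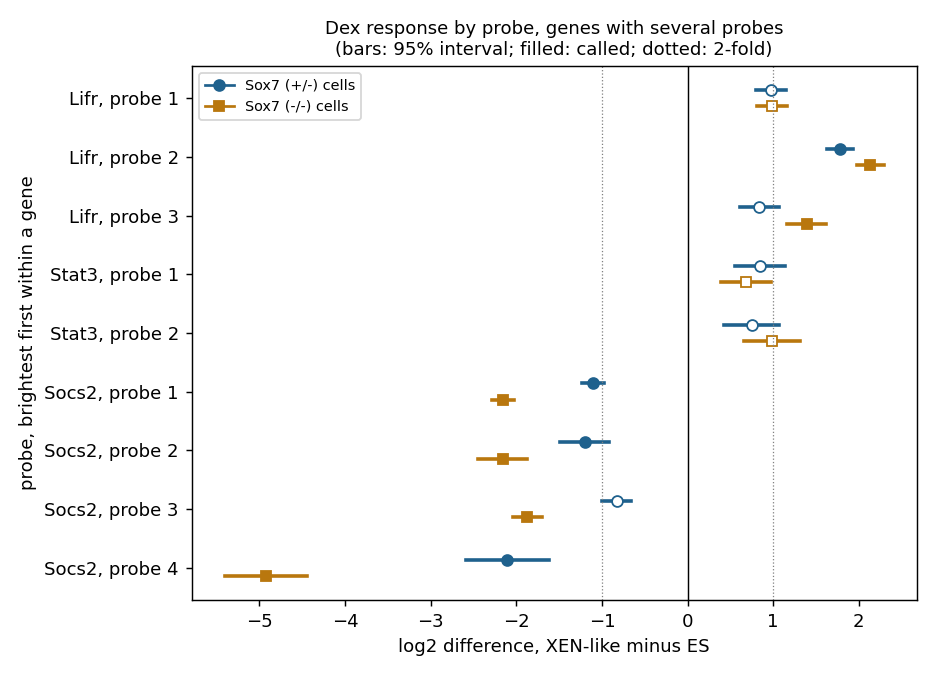
Log2 difference of XEN-like minus ES cells for each probe of the 3 genes with several probes, in *Sox7* (+/-) cells (circles) and *Sox7* (-/-) cells (squares); lines are 95% intervals, filled symbols are called, dotted lines mark 2-fold. The second *Lifr* probe lay at 1.78 and 2.13, to the right of the first at 0.98, and the 4 *Socs2* probes all lay left of zero.

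*Il6st*, which encodes the shared subunit gp130, had its 4 groups between 274 and 380.4%. It was at 322, 343 and 285% in *Sox7* (+/-) ES cells, 359.5, 333 and 274% in *Sox7* (+/-) XEN-like cells, 364, 365 and 380.4% in *Sox7* (-/-) ES cells and 321, 311 and 304% in *Sox7* (-/-) XEN-like cells. The *Sox7* (-/-) ES arrays lay above all others, and the other 3 groups overlapped. None of the 5 comparisons reached an adjusted p of 0.05, and the 95% intervals of the Dex differences ran from -0.21 to 0.25 in *Sox7* (+/-) and from -0.48 to -0.01 in *Sox7* (-/-) cells. For *Sox7* (+/-) cells the Dex difference was 0.02, of no settled sign, since the spike-in controls gave -0.47 (adjusted p = 0.047). For *Sox7* (-/-) cells it was -0.25, with an adjusted p from limma of 0.012 on only the compared arrays. It was -0.34 (adjusted p = 0.014) after quantile normalization. The spike-in controls gave -0.33 (adjusted p = 0.14) and the deposited table -0.27 (adjusted p = 0.22).

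*Osmr*, the receptor chain for oncostatin M, which also pairs with gp130, was dim in every group but *Sox7* (+/-) ES cells. It read 23.2, 26.0 and 23.7% there, 13.6, 5.19 and 18.4% in *Sox7* (+/-) XEN-like cells, 5.56, 3.56 and 7.52% in *Sox7* (-/-) ES cells and 9.30, 12.3 and 9.29% in *Sox7* (-/-) XEN-like cells. The *Sox7* (+/-) ES arrays lay above all others, and no *Sox7* (-/-) ES array was well above background. *Osmr* fell with Dex in *Sox7* (+/-) cells (log2 difference -1.15, SE 0.41, adjusted p = 0.033) and ES cells without *Sox7* had at least 2.66-fold less of it than heterozygous ones (adjusted p = 0.0020). Both calls rest on the group in which this dim probe was high and could pass the filter, which favours such calls. Without the filter on dim probes the adjusted p from limma was 0.047 for the fall and 0.0065 for the ES difference. The fall was -0.62 (adjusted p = 0.084) without *Sox7* (+/-) XEN-like replicate 2, its dimmest array, and it was not called in 3 of the other 5 fits that left out 1 array, those without a *Sox7* (+/-) ES array. It was not called either at -0.25 with normexp or -0.73 in the deposited table, nor with an adjusted p of 0.076 on only the compared arrays and of 0.055 within the slide. In *Sox7* (-/-) cells *Osmr* was at least 1.12-fold higher in XEN-like than in ES cells, with an adjusted p of 0.067, and was called when *Sox7* (-/-) ES replicate 3 was left out (adjusted p = 0.044). With the slide as a block the ES difference was not called (adjusted p = 0.13). Its fitted value was under 2-fold, at -0.74 with normexp and -0.82 in the deposited table (adjusted p = 1.3e-04 and 4.1e-04 from limma). The bound of 2.66-fold thus holds for the main background subtraction only.

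The 2 kinase genes were higher in XEN-like cells of both genotypes. *Jak2* (mm9 chr19:29387487-29387546) read 123, 117 and 115% in *Sox7* (+/-) ES cells, 323, 296 and 249.9% in *Sox7* (+/-) XEN-like cells, 101, 96.0 and 103% in *Sox7* (-/-) ES cells and 321, 304 and 314% in *Sox7* (-/-) XEN-like cells. The XEN-like groups overlapped each other and lay above both ES groups. *Jak2* rose 2.44-fold in *Sox7* (+/-) cells (log2 difference 1.29, SE 0.09, adjusted p = 7.6e-07) and 3.13-fold in *Sox7* (-/-) cells (1.65, SE 0.09, adjusted p = 9.1e-08), which was 1.69 on the log2 scale within 1 slide. The 2 responses differed by 0.36 (95% interval 0.08 to 0.65, adjusted p = 0.062). Scaled by the spike-in controls, and also in the deposited table, the rise in *Sox7* (+/-) cells was 0.80, under 2-fold.

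*Jak1* (mm9 chr4:100825094-100825153) read 454 to 527% in *Sox7* (+/-) ES, 890.3 to 1037% in *Sox7* (+/-) XEN-like, 450.2 to 494% in *Sox7* (-/-) ES and 775 to 832% in *Sox7* (-/-) XEN-like cells. The ES groups overlapped and the XEN-like groups did not. Its Dex differences were 0.94 (adjusted p = 4.6e-06) and 0.79 (adjusted p = 1.5e-05), under 2-fold in both genotypes, and the former was 0.45 (adjusted p = 0.013) scaled by the spike-in controls. Between XEN-like cells it was -0.25 in *Sox7* (-/-) against *Sox7* (+/-) cells (SE 0.08, adjusted p = 0.041), and 0.14 in the table as deposited, a change of sign.

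*Stat3*, the transcription factor of the pathway, read 877, 926 and 883% in *Sox7* (+/-) ES, 1763, 1864 and 1275% in *Sox7* (+/-) XEN-like, 786, 841 and 866% in *Sox7* (-/-) ES and 1465, 1231 and 1328% in *Sox7* (-/-) XEN-like cells (brightest probe, mm9 chr11:100749598-100749657). All XEN-like arrays lay above all ES arrays, and *Sox7* (+/-) XEN-like replicate 3 lay with the *Sox7* (-/-) XEN-like arrays, below the other 2 of its group. The Dex differences were 0.85 (SE 0.13, adjusted p = 2.6e-04) and 0.69 (adjusted p = 9.4e-04), under 2-fold in both genotypes, and 1.02 in *Sox7* (+/-) cells without that replicate, where it was called. Scaled by the spike-in controls the *Sox7* (+/-) difference was 0.36 (adjusted p = 0.15), and 0.39 in the deposited table (adjusted p = 0.075). The other, dimmer *Stat3* probe differed by 0.75 and 0.99. By the brightest probe the 2 XEN-like groups differed by -0.27 (95% interval -0.56 to 0.02) and the ES groups by -0.11, *Sox7* (-/-) minus *Sox7* (+/-). The mean of the 2 probes was lower in *Sox7* (-/-) cells at both stages, under 2-fold. It differed by -0.39 in ES cells (adjusted p = 0.025 from limma) and by -0.35 in XEN-like cells (adjusted p = 0.048). This mean was not fitted with other scalings or with the slide as a block. Between XEN-like cells the brightest probe was at -0.02 scaled by the spike-in controls and at 0.16 in the deposited table, a change of sign.

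Between ES cells of the 2 genotypes, *Socs2* was higher and *Osmr* lower in *Sox7* (-/-) cells, and the other 8 genes were not called by their brightest probe. That is 1 gene called higher, where 1.95% of all probes were, and 1 lower, where 6.67% were. The call of *Osmr* again rests on the group in which its dim probe was high. The median over the 10 genes was -0.19, and over all probes it was 0.10. In XEN-like cells *Socs3* and *Pim1* were lower in *Sox7* (-/-) cells and no gene was higher, against 3.65% of all probes called lower and 3.86% higher. The median there was -0.26 over the 10 genes and 0.00 over all probes.

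**Figure D4:**
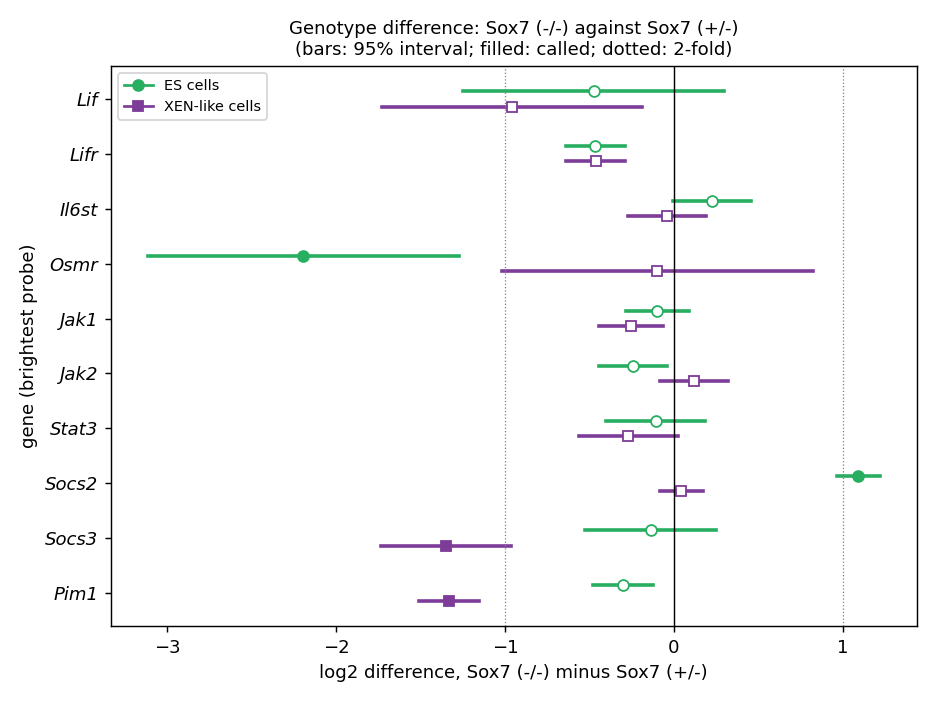
Log2 difference of *Sox7* (-/-) minus *Sox7* (+/-) cells for the brightest probe of each gene, in ES cells (circles) and XEN-like cells (squares); lines are 95% intervals from limma, filled symbols are called, dotted lines mark 2-fold. *Socs3* at -1.35 and *Pim1* at -1.33 were called in XEN-like cells, and *Socs2* at 1.09 and *Osmr* in ES cells. *Lif* and *Osmr* are drawn from measured signals although no *Sox7* (-/-) ES array was well above background, so their ES points are not measured sizes.

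*Socs2*, an inhibitor best known for damping growth hormone signalling and also induced by LIF, was called between the genotypes in ES cells and was not in XEN-like cells. It read 322, 313 and 308% in *Sox7* (+/-) ES cells, 148, 148 and 141% in *Sox7* (+/-) XEN-like cells, 678, 645 and 689.7% in *Sox7* (-/-) ES cells and 149.7, 151 and 150.3% in *Sox7* (-/-) XEN-like cells (brightest probe, mm9 chr10:94875066-94875125). The XEN-like groups lay side by side, barely apart and below both ES groups, and every *Sox7* (-/-) ES array lay above every *Sox7* (+/-) ES array. It was 2.13-fold higher in *Sox7* (-/-) ES cells (log2 difference 1.09, SE 0.06, adjusted p = 5.1e-07; 1.10, adjusted p = 3.3e-04, with the slide as a block). With Dex it fell by 1.11 on the log2 scale in *Sox7* (+/-) and by 2.16 in *Sox7* (-/-) cells (SE 0.06 for both), and by 2.16 within 1 slide in the latter. Between XEN-like cells the difference was 0.05 (95% interval -0.08 to 0.17).

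The other 3 probes of *Socs2* were lower with Dex as well. Those at mm9 chr10:94875187-94875246 and chr10:94875468-94875527 were 2.13-fold and 2.38-fold higher in *Sox7* (-/-) ES cells and differed with Dex by -1.20 and -0.83 in *Sox7* (+/-) and -2.16 and -1.87 in *Sox7* (-/-) cells. The fourth, at chr10:94848005-94848064 and assigned to a transcript of its own, was not well above background on any XEN-like array. It fell with Dex in *Sox7* (+/-) cells, at least 1.70-fold, and in *Sox7* (-/-) cells, at least 7.58-fold. In ES cells it was 3.09-fold higher in *Sox7* (-/-) cells. For the brightest probe the ES difference was just under 2-fold at 0.99 after quantile normalization and at 0.94 scaled by the spike-in controls.

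*Socs3*, the feedback inhibitor that binds gp130 and the Jak kinases, had its clearest difference between the XEN-like groups. It read 669, 813 and 841% in *Sox7* (+/-) ES cells, 1295, 1286 and 2124% in *Sox7* (+/-) XEN-like cells, 702, 684 and 715% in *Sox7* (-/-) ES cells and 606, 584 and 606% in *Sox7* (-/-) XEN-like cells (mm9 chr11:117827480-117827539). The *Sox7* (+/-) XEN-like arrays lay above all others, with replicate 3 far above its 2 neighbours, the *Sox7* (-/-) XEN-like arrays lay below all others, and the ES groups overlapped. *Socs3* was 2.55-fold lower in *Sox7* (-/-) XEN-like cells (log2 difference -1.35, SE 0.17, adjusted p = 3.2e-04; -1.36 within 1 slide and -1.11 without *Sox7* (+/-) XEN-like replicate 3). In the table as deposited the difference was -0.99, just under 2-fold. The Dex difference was 0.98 in *Sox7* (+/-) cells (SE 0.17, adjusted p = 6.4e-04), 1.98-fold, 0.74 without replicate 3 and 0.49 scaled by the spike-in controls. It passed 2-fold, at up to 1.11, when any other XEN-like array or ES replicate 2 or 3 of that genotype was left out. In *Sox7* (-/-) cells it was -0.23 (95% interval -0.61 to 0.16, adjusted p = 0.27). In ES cells the genotypes differed by -0.14 (95% interval -0.52 to 0.25).

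*Pim1*, a serine/threonine kinase and Stat3 target that favours ES cell self-renewal, was lower in XEN-like cells of both genotypes and fell further in *Sox7* (-/-) cells. It read 141, 149.5 and 151% in *Sox7* (+/-) ES cells, 48.7, 42.4 and 42.6% in *Sox7* (+/-) XEN-like cells, 125, 114 and 119% in *Sox7* (-/-) ES cells and 16.6, 18.7 and 17.8% in *Sox7* (-/-) XEN-like cells (mm9 chr17:29630740-29630799). No 2 groups overlapped, and all 12 arrays were well above background. *Pim1* fell 3.30-fold in *Sox7* (+/-) cells (log2 difference -1.72, SE 0.08, adjusted p = 3.2e-08) and 6.75-fold in *Sox7* (-/-) cells (-2.76, SE 0.08, adjusted p = 8.8e-10; -2.85 within 1 slide). XEN-like cells without *Sox7* had 2.52-fold less *Pim1* (-1.33, SE 0.08, adjusted p = 2.3e-06; -1.29 within 1 slide), and in ES cells the difference was -0.30 (adjusted p = 0.012), and -0.16 (adjusted p = 0.49) with the slide as a block. The XEN-like difference was -0.83 with normexp background correction and -0.52 in the table as deposited, which is not background-subtracted, both under 2-fold.

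Tested as the difference between the 2 Dex responses, *Sox7* (-/-) minus *Sox7* (+/-), 1 gene was called higher and 3 lower, where 6.62% and 3.17% of all probes were. The response of *Socs2* was lower by -1.05 (SE 0.08, adjusted p = 1.2e-05), that of *Socs3* by -1.21 (SE 0.25, adjusted p = 0.0054) and that of *Pim1* by -1.03 (SE 0.11, adjusted p = 1.3e-04), and that of *Osmr* was called higher (adjusted p = 0.024), with no size given because no *Sox7* (-/-) ES array read it well above background. For *Socs2* the groups were apart in ES cells, for *Socs3* and *Pim1* mainly in XEN-like cells. The median over the 10 genes was -0.21, against -0.09 over all probes. None of the 4 was called by limma in the deposited table, where *Socs3* and *Osmr* had an adjusted p under 0.05 and *Socs2* was at -0.60, *Socs3* at -0.79 and *Pim1* at -0.30, and the value of *Socs3* was -0.97 without *Sox7* (+/-) XEN-like replicate 3.

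The rest of the pathway was read from a list of 46 genes in 5 groups, of which 41 were tested. *Osm*, *Ctf2*, *Clcf1*, *Pias3* and *Zfp36* were not well above background on all 3 arrays of any group. With Dex 6 of the 41 rose and 12 fell in *Sox7* (+/-) cells, and 7 rose and 10 fell in *Sox7* (-/-) cells. Of all probes 11.0% rose and 14.0% fell in the former and 14.6% and 14.2% in the latter, and the counts of the 5 groups below stand against the same shares. Between ES cells, 4 were higher (*Gbx2*, *Klf4*, *Stat4* and *Ebi3*) and 2 lower (*Pim2* and *Fos*) without *Sox7*, against 1.95% and 6.67% of all probes. Between XEN-like cells, 5 were higher (*Stat6*, *Bcl3*, *Il27ra*, *Tfcp2l1* and *Stat4*, the last below background in both groups) and 2 lower (*Myc* and *Il6*), against 3.86% and 3.65% of all probes. The median log2 difference of the 41 was -0.01 and -0.30 for the Dex responses, 0.16 in ES cells and 0.18 in XEN-like cells, where that of all probes was 0.16, 0.07, 0.10 and 0.00.

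**Figure D5:**
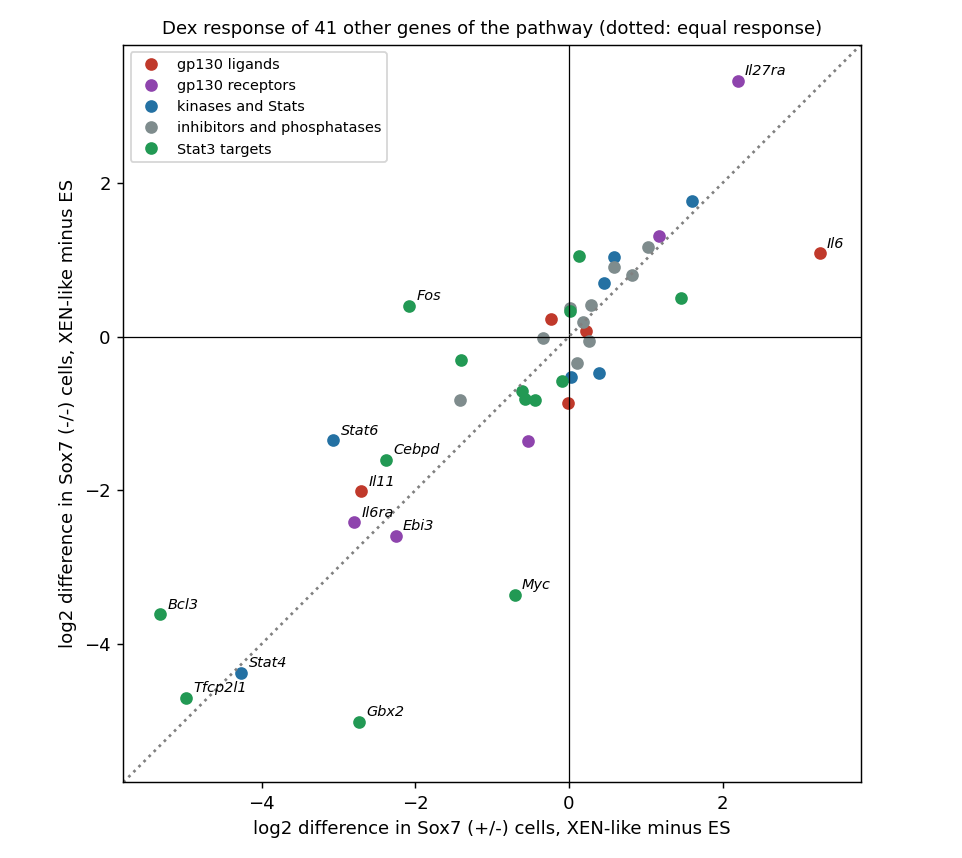
Log2 difference of XEN-like minus ES cells in *Sox7* (+/-) cells (horizontal axis) and *Sox7* (-/-) cells (vertical axis) for the brightest probes of the 41 other genes of the pathway, coloured by role; the dotted line marks equal responses, and points use the measured signals also where a group was below background. *Bcl3* and *Tfcp2l1* lay far below zero in both genotypes, and *Myc* was at -0.71 and -3.36.

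Among the gp130 ligands, 1 of 5 rose and 1 fell in *Sox7* (+/-) cells, and 1 rose and 1 fell in *Sox7* (-/-) cells. *Il6*, the founding cytokine of the family, was well above background only in *Sox7* (+/-) XEN-like cells, at 15.8, 14.3 and 20.3%, a level at least 2.43-fold above that of the same cells before Dex and at least 2.20-fold above *Sox7* (-/-) XEN-like cells. *Il11* was well above background on all arrays of *Sox7* (+/-) ES cells and on none of the others, and fell at least 1.52-fold with Dex. The 2 calls in *Sox7* (-/-) cells were again *Il6* and *Il11*, neither of which was well above background on any *Sox7* (-/-) array. Each was tested only through the 1 group in which it was well above background.

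Of the 5 other receptor genes, 2 rose and 2 fell in each genotype. *Il11ra1*, the receptor chain for interleukin 11, rose by 1.18 and by 1.31 on the log2 scale, in *Sox7* (+/-) and *Sox7* (-/-) cells. *Il27ra* rose as well, by at least 1.52-fold in the former and 2.69-fold in the latter. *Il6ra*, the receptor chain for interleukin 6, fell by 2.80 and 2.42 on the log2 scale. *Ebi3*, a subunit of interleukin 27 that the list counts here, dropped by at least 3.43-fold in *Sox7* (+/-) cells, and in *Sox7* (-/-) cells the log2 difference was -2.59.

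Of the 7 other kinase and Stat genes tested, 1 rose and 2 fell in *Sox7* (+/-) cells, and 2 rose and 2 fell in *Sox7* (-/-) cells. *Stat5b*, a Stat that also answers growth hormone and prolactin, rose by 1.60 (SE 0.13) and 1.77 (SE 0.13). *Stat4*, the Stat of interleukin 12 signalling, fell in both, by at least 5.02-fold and 15.8-fold, to below background in both XEN-like groups. *Stat6*, the Stat of interleukin 4 signalling, fell in both genotypes, with log2 differences of -3.06 and -1.35. It read 17.0 to 21.4% in *Sox7* (+/-) XEN-like cells and averaged 110.2% ± 4.92 (SD, n = 3) in *Sox7* (-/-) XEN-like cells, groups far apart, with a log2 difference of 2.54 (SE 0.09, adjusted p = 8.8e-08). Its Dex responses differed by 1.72 (SE 0.12, adjusted p = 7.8e-06).

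Of the 10 inhibitor and phosphatase genes tested, 1 rose and 1 fell in *Sox7* (+/-) cells and 1 rose in *Sox7* (-/-) cells, and none was called between the genotypes. There, by limma, 2 in ES cells and 4 in XEN-like cells had an adjusted p under 0.05 at any fold. The share of all probes at any fold was not counted between the genotypes, so these counts cannot be set against it. *Socs5* was the gene that rose in both genotypes, by 1.03 on the log2 scale in *Sox7* (+/-) cells and, in *Sox7* (-/-) cells, by at least 1.50-fold. *Ptpn6*, a phosphatase that acts on Jak kinases, fell by 1.42 in *Sox7* (+/-) cells and was at -0.83 in *Sox7* (-/-) cells.

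Of the 14 other Stat3 target genes tested, 1 rose and 6 fell in *Sox7* (+/-) cells, and 1 rose and 5 fell in *Sox7* (-/-) cells. *Tfcp2l1*, which links Stat3 to the ES cell state, fell by 4.98 and 4.70 on the log2 scale, and *Bcl3*, a cofactor of NF-kappaB, by 5.32 and 3.61. *Klf4*, a pluripotency factor that LIF sustains in ES cells, went the other way. It read 1755, 1803 and 1767% in *Sox7* (+/-) ES cells and 5226, 5010.3 and 4423% in *Sox7* (+/-) XEN-like cells, a rise of 1.46 (SE 0.07, adjusted p = 4.5e-08), and in *Sox7* (-/-) cells the difference was 0.50. ES cells without *Sox7* had more *Klf4*, by 1.31. Scaled by the spike-in controls, the rise of *Klf4* was 0.97, just under 2-fold.

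*Myc*, a growth regulator that Stat3 activates in ES cells, was lower with Dex by -0.71 in *Sox7* (+/-) cells, under 2-fold, and fell by 3.36 on the log2 scale in *Sox7* (-/-) cells. It read 100.3, 91.4 and 95.6% in *Sox7* (+/-) ES, 51.7, 58.8 and 66.5% in *Sox7* (+/-) XEN-like, 162, 165 and 159% in *Sox7* (-/-) ES and 16.3, 15.1 and 15.9% in *Sox7* (-/-) XEN-like cells. The 4 groups did not overlap. The XEN-like difference was -1.90 (SE 0.09, adjusted p = 5.8e-07), and the difference in response was -2.65 (SE 0.13, adjusted p = 6.0e-07). The XEN-like difference was -0.88 in the table as deposited. For *Bcl3* the XEN-like difference was 1.68, higher without *Sox7*, and for *Gbx2* the ES difference was 1.66, while *Pim2*, a relative of *Pim1*, was lower in *Sox7* (-/-) ES cells by -1.69. With the slide as a block the ES differences of *Gbx2* and *Pim2* were 0.89 and -1.33 and were not called.

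Across the 12 arrays, the genes whose log2 signal followed that of *Lifr* most closely were *Pvr* (Pearson's r = 0.995), *Rnf170* (0.995) and *Hook3* (0.993). For *Socs3* they were *Lime1* (0.971), *Slc10a1* (0.965) and *Mboat2* (0.957). For *Lif* they were a probe without a gene name (0.970), *A430017K17* (0.958) and *Parp6* (0.941). The arrays fall into 4 groups that share a genotype or a treatment, so these values describe the pattern over the groups and carry no test.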

How the data were processed

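RNA of the 4 groups had been hybridized to one-colour Agilent arrays of mouse probes. The authors deposited intensity values of each array as the output of Agilent Feature Extraction 10.7.3.1, in which the processed signal is background-subtracted but not scaled between arrays, and a table of intensity values for all arrays that lay within 0.498% of the mean spot signal and so is neither background-subtracted nor scaled. Probe positions are those of the array annotation on mm9.

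Processed signals were divided by the 75th percentile of their array and put on a log2 scale. That percentile lay between 252.3 and 415.9 intensity units. Per array, 41.7% to 52.3% of spots were well above background by the flag of Feature Extraction, and no spot was saturated. Spots of 1 probe were averaged without spots flagged as outliers. A model with a mean for each group was fitted to the 12 arrays in limma 3.58.1 (R 4.3.3), and 5 comparisons were drawn from it. The 25940 probes tested had at least 1 group whose 3 arrays were all well above background. A dim probe can enter the test only through the group in which it is high, which favours its call. The fit was tested on simulated data with independent normal noise and added changes. Those data held no slide effect or shift in scaling and did not repeat the filter, so that test does not bear on these limits. For the size of a change at a probe that no array of a group read well above background, a bound is given where it exceeds 1-fold, with the adjusted p of the fit to the measured signals. It sets the mean of the brighter group against the dimmer group's detection limits, or against the probe's signal where that exceeded the limit.

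The 10 genes, the 46 other pathway genes, the marker lists and the rules were chosen with earlier results of these data known. All 10 genes are described with every probe, though the dimmer probes are not given in every comparison. Of the other pathway genes, the 2 highest and the 2 lowest differences were named in each comparison among called probes whose groups stayed apart and could be read in both, besides genes given by a bound. *Il6ra* and *Ptpn6* were added after their values were seen. Of the pathway list, 2 genes are not reported here and were left out of its counts. For *Lifr*, *Lif* and *Socs3* the 3 genes with the highest correlation were named.

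Other settings tried were quantile normalization, scaling by 7 spike-in probes, normexp (offset 50), the deposited table, a filter on dim probes that was absent or applied to all arrays, gene means over probes, a trend of variance with intensity, fits to the compared arrays or to 1 slide, blocks for slide or replicate, and the omission of each array. Same-numbered arrays of different groups deviated from their group means with correlations of -0.051 to 0.126, and were not paired. Promoter windows came from a RefSeq table of GRCm38.p6.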

Additional observations from a re-analysis of the deposited data

Results flagged for a closer look

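The Dex response of 4 of the 10 genes differed between the genotypes by a test of the difference itself, the *Sox7* (-/-) response minus the *Sox7* (+/-) response in limma. Of these 1 was called higher and 3 lower, where 6.62% and 3.17% of all probes were. For *Socs2* it was -1.05 (95% interval -1.23 to -0.87), for *Socs3* -1.21 (-1.76 to -0.66), for *Pim1* -1.03 (-1.28 to -0.78) and for *Osmr* 2.10. The last is the fitted value and not a measured size, because no *Sox7* (-/-) ES array read *Osmr* well above background. With the slide as a block, *Socs2* was at -1.06, *Socs3* at -1.19 and *Pim1* at -1.12, all still called, and *Osmr* was not (adjusted p = 0.11). Scaled by the spike-in controls, *Socs2* was at -0.65, *Socs3* at -0.81 and *Pim1* at -0.63, none of them called, and *Osmr* was still called. With normexp, *Socs2* at -0.95, *Pim1* at -0.61 and *Osmr* at 0.49 were not called, and *Socs3* at -1.13 was. The values of *Pim1* and *Socs2* lay close to the 2-fold threshold, and that of *Pim1* was just under it in 4 of the 12 fits that left out 1 array, those without replicate 1 of any of the 4 groups, at -0.97 without that of the *Sox7* (+/-) XEN-like cells. *Socs3* was at -0.97 without *Sox7* (+/-) XEN-like replicate 3. *Osmr* rests on signals near background in 3 of the 4 groups, and its fitted value was 1.56 without *Sox7* (+/-) XEN-like replicate 2, the array that read 5.19% of the 75th percentile. It was not called without replicate 2 of the *Sox7* (+/-) ES, the *Sox7* (-/-) ES or the *Sox7* (-/-) XEN-like cells. With the spike-in controls the median of all probes for this difference moved from -0.09 to 0.31.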

How the results depend on the processing

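Of the 10 genes, those called in the Dex response of *Sox7* (+/-) cells numbered 5, and 3 with normexp, 3 with spike-in scaling, 3 with the filter on all arrays and 2 in the deposited table. In ES cells they numbered 2, and 1 each with normexp, quantile normalization, spike-in scaling, the deposited table, the filter on all arrays and the slide block. In XEN-like cells they numbered 2, 1 with normexp and 0 in the deposited table, where by limma both genes had an adjusted p under 0.05 at less than 2-fold. For the difference in response they numbered 4, 1 with normexp, 2 after quantile normalization, 1 scaled by spike-ins and 0 by limma in the deposited table, 2 of them there with an adjusted p under 0.05. Leaving out 1 array gave 3 to 5 genes for the Dex response of *Sox7* (-/-) cells, 5 without *Sox7* (-/-) ES replicate 3. Of all probes 14.2 to 14.6% were called higher and 13.7 to 14.3% lower in those fits. Of the 41 other genes, the filter on all arrays left 9 of 18 and 9 of 17 calls for the 2 Dex responses, 2 of 6 in ES cells, 4 of 7 in XEN-like cells and 4 of 7 for the difference in response. Normexp gave 3, 4 and 3 in the last 3, and in ES cells the deposited table and the slide block gave 3 each. For the difference in response, spike-in scaling gave 11, and leaving out 1 array gave 6 to 11, the 11 without *Sox7* (+/-) XEN-like replicate 3. Over the fits that left out 1 array, 6.08 to 6.99% of all probes were called higher there and 2.73 to 3.43% lower. Shares of all probes under the other settings are not given here, so whether the counts moved with them is not shown.

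Signs changed for small differences that were not called. *Il6st* with Dex in *Sox7* (+/-) cells was -0.0681 with normexp, -0.11 after quantile normalization, -0.47 scaled by spike-ins, -0.45 in the deposited table and from -0.0623 to 0.13 with 1 array left out. In XEN-like cells, *Il6st* was 0.0698, 0.21 and 0.42 with normexp, spike-in scaling and the deposited table and from -0.15 to 0.0451 with 1 array left out. *Osmr* there was 0.15 both with spike-in scaling and in the deposited table and from -0.63 to 0.28 with 1 array left out, *Jak1* and *Stat3* were 0.14 and 0.16 in the deposited table, and *Socs2* was -0.20 as the mean of its probes. For the difference in response, spike-in scaling and the deposited table gave 0.14 and 0.17 for *Il6st*, 0.24 and 0.30 for *Jak1* and 0.24 and 0.26 for *Stat3*, which was 0.0398 as the mean of its probes. *Lifr* there was -0.00176 with the slide block and from -0.0493 to 0.0939 with 1 array left out, and *Lif* in ES cells, fitted to signals not well above background in *Sox7* (-/-) cells, was 0.18 with the slide block.

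With the replicate block the calls for the 10 genes numbered 5, 3, 2, 2 and 4 as before in the 5 comparisons, and those for the difference in response of the other pathway genes 6 in place of 7. *Lif*, *Osmr* and *Il6* lay near background in most groups, which limits the precision of their values.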
